A study of Sus scrofa with 36 samples.

Results

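ATP6V0D2 and ATP6V1C2 encode subunits of the vacuolar proton pump (V-ATPase) that are made in few tissues. Both were followed in mammary gland RNA across 9 treatment groups of pigs. Their probe sets were chosen by annotation: those assigned to either gene alone were taken, and for each gene the one with the highest mean over the 36 arrays was used. This gave 2 genes of the 6360 represented on the array. ATP6V0D2 had 1 such probe set and ATP6V1C2 had 2, of which the brighter was used and the dimmer is given beside it. Both genes were picked with their values in these animals already known, so every level and difference of theirs is a description and carries no p-value.

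The V-ATPase is a rotary machine that spends ATP to push protons across membranes. Its peripheral V1 sector splits ATP, and its membrane-bound V0 sector carries the protons. In the V0 sector, subunit d joins the rotor to the central stalk. ATP6V0D1 is the form found in most cells, and ATP6V0D2 is known in mouse from osteoclasts, kidney and epididymis. In the V1 sector, subunit C belongs to the stator and takes part in assembly of the pump. ATP6V1C1 is its widespread form, and ATP6V1C2 is known from kidney and lung in mouse and human.

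RNA came from female Yucatan miniature pigs of 5 months, 4 animals in each group and 1 array per animal. In 8 groups the ovaries had been removed and every animal was first treated for 8 days with bromocriptine, which activates dopamine receptors and so holds back prolactin. Haloperidol, which blocks dopamine receptors and so releases prolactin, was given for the last 5 days in 4 of these groups: HEP with estrogen and progesterone, HP with progesterone, HE with estrogen, and H without steroid. Bromocriptine was continued over the same 5 days in the other 4: BEP with estrogen and progesterone, BP with progesterone, BE with estrogen, and B without steroid. The sham group had an operation that left the ovaries in place and received saline for 13 days, so B differed from sham in both ovariectomy and bromocriptine, which cannot be told apart here. All animals received BrdU, a label of DNA synthesis, 24 hours before the end. The letters A to D name the animals of a group. The sources used here give neither doses nor the steroid compounds.

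Values are RMA summaries, read here as log2, and spanned 1.55 to 13.7 over all probe sets. The median of an array lay between 7.83 and 7.91 and its lower quartile between 5.90 and 6.09. The mean level exceeded every array's median for 14 of 16 measured markers of luminal epithelium and for 19 of 20 genes of milk proteins and secretion. This was not particular to epithelium, since the count was 24 of 28 for lysosomal, 6 of 7 for osteoclast and 9 of 12 for adipocyte genes. It was 7 of 21 for cell cycle and 2 of 13 for skeletal muscle genes. Correlations between arrays ran from 0.865 to 0.984, and no pair was identical. The library labelled BP A stood apart from its group: it correlated at 0.877 to 0.896 with the other 3 BP libraries, against a mean of 0.959 with the 4 HE libraries. Whether this sample was swapped or mislabelled cannot be told from the labels, so every BP value, and the division within BP, is open to that. Differences of the pair that involve BP, from the brightest probe set of each gene, are given with and without it. In whole tissue, a change in the number of cells of a type and a change in RNA per cell cannot be told apart. Comparisons of other genes used limma with an adjusted p threshold of 0.05 over all 20792 probe sets, and the p-values measure the spread between these animals.

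ATP6V0D2 was high or low with almost nothing between, and 7 of the 9 groups lay wholly on 1 side. Its level was 7.60, 9.01, 7.18 and 8.10 in HEP animals A to D. The same gene gave 7.61, 8.28, 7.77 and 8.26 in H. HE, the haloperidol group with estrogen alone, had 3.19, 3.83, 2.80 and 4.21. All 4 HEP and all 4 H animals thus lay above all 4 HE animals. HP, in which progesterone was the only steroid, was mixed, at 2.94, 7.67, 8.20 and 3.66, so that animals B and C sat with H and animals A and D with HE.

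Under continued bromocriptine, BP was the group with high values, at 3.83, 8.59, 7.0 and 8.37. BEP had 4.35, 3.57, 2.93 and 5.49. Estrogen alone gave 4.12, 2.71, 4.91 and 3.68 in BE. Without steroid, the level was 2.64, 4.49, 4.36 and 3.17 in B. The sham animals, with ovaries, had 3.07, 3.59, 3.08 and 3.62. Apart from BP A, the bromocriptine groups therefore split by progesterone given without estrogen, and every BEP, BE and B animal lay in the low range with sham.

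**Figure D1:**
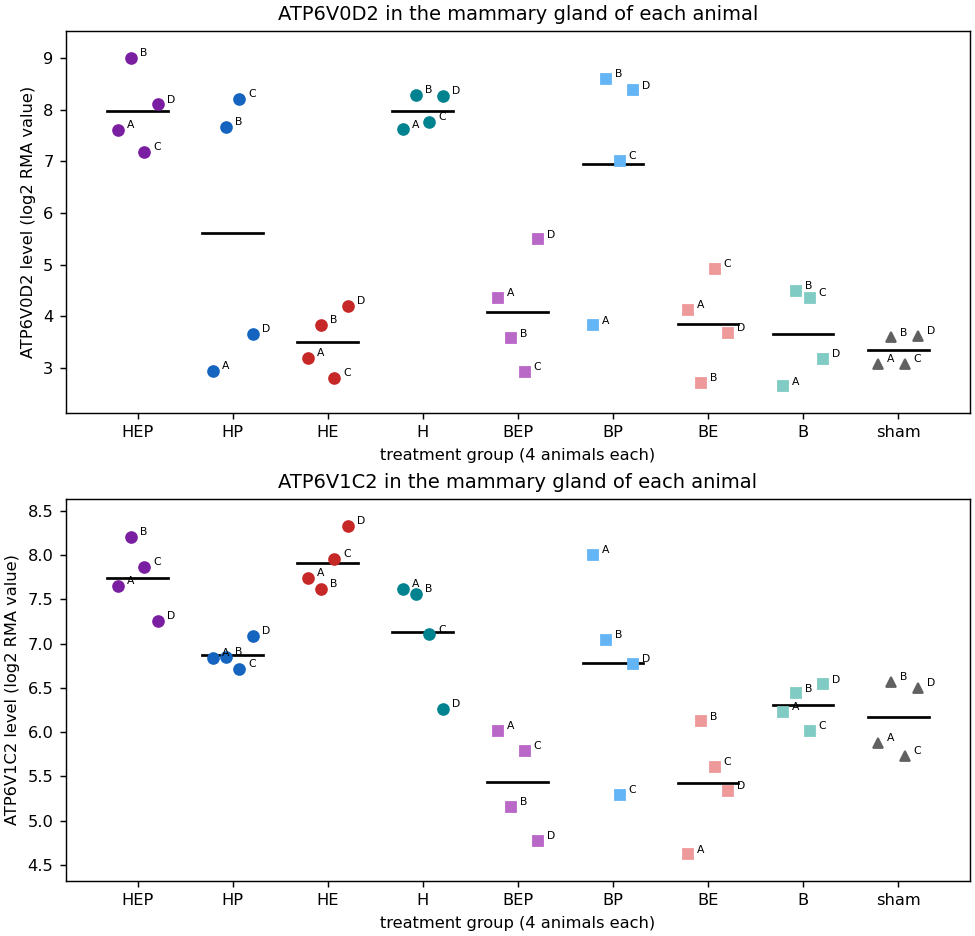
Level of ATP6V0D2 (upper panel) and ATP6V1C2 (lower panel) in each of 36 animals, as log2 RMA values by treatment group. Points are animals with their letters and bars are means of 4. ATP6V0D2 has no animal between 5.49 and 7.0, whereas ATP6V1C2 has no such space, with HE and HEP at the top.

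The widest space between neighbouring animals, 1.51, lay between 5.49 in BEP D and 7.0 in BP C, and the next widest was 0.58. Above it stood 13 animals: 4 of 4 in HEP, 2 of 4 in HP, 4 of 4 in H and 3 of 4 in BP. Below it stood the other 23, with 0 of 4 above in HE, BEP, BE, B and sham. The low animals were near the bottom of the array's range, since 23 values lay below the lower quartile of their own array and 7 above its median. Detection was not measured here, so the size of a fold against a low group is uncertain. For ATP6V1C2 the widest space was 0.39, and it set apart only 2 animals.

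By mean, the order for ATP6V0D2 was H at 7.98 ± 0.34, HEP at 7.97 ± 0.78, BP at 6.95 ± 2.20, HP at 5.62 ± 2.70, BEP at 4.09 ± 1.1, BE at 3.85 ± 0.92, B at 3.67 ± 0.90, HE at 3.51 ± 0.63 and sham at 3.34 ± 0.30 (SD, n = 4 each). No neighbours in this order differed by more than the larger of their SDs. BP and HP, with the largest SDs, were the groups with animals on both sides of the space. Without BP A, the mean of BP was 7.99 ± 0.86 (SD, n = 3), level with H and HEP.

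Read as single steps, estrogen, progesterone and haloperidol each went with a higher level in some backgrounds and a lower or similar level in others. With haloperidol alone as background, estrogen gave a log2 difference of -4.47 ± 0.89 (SE) between HE and H, a ratio of 22.2 on the linear scale. Each SE rests on a spread pooled over all groups, although the group SDs ran from 0.30 in sham to 2.70 in HP. It therefore understates the spread in steps with HP or BP (SD 2.20). When progesterone was present too, the difference for estrogen was 2.36 ± 0.89 between HEP and HP. Under bromocriptine it was -2.86 ± 0.89 between BEP and BP and 0.19 ± 0.89 between BE and B. The HE values lay wholly below those of H, while HEP overlapped HP. For comparison, 19.9% of all probe sets were called by limma between HE and H, 16.5% between HEP and HP, 0.784% between BEP and BP, and 3.78% between BE and B.

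Progesterone showed the same dependence on its background. The log2 difference was 4.46 ± 0.89 between HEP and HE, a ratio of 22.1, with all HEP animals above all HE animals. Without estrogen under haloperidol it was -2.36 ± 0.89 between HP and H. Under bromocriptine it was 3.28 ± 0.89 between BP and B, and 0.23 ± 0.89 between BEP and BE. Thus progesterone went with a high level where estrogen was present under haloperidol and where estrogen was absent under bromocriptine. Of all probe sets, 0.476% were called by limma between HEP and HE, 0.024% between BP and B and 0.149% between BEP and BE, and 0% between HP and H (568 had an unadjusted p under 0.05).

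Haloperidol in place of bromocriptine went with a higher level when neither or both steroids were given. The log2 difference was 4.31 ± 0.89 between H and B and 3.89 ± 0.89 between HEP and BEP, with no overlap of the animals in either pair. It was -0.35 ± 0.89 between HE and BE and -1.33 ± 0.89 between HP and BP. The share of probe sets called by limma was 0.0337% between H and B, 1.08% between HEP and BEP, 10.5% between HE and BE, and 0% between HP and BP (1006 had an unadjusted p under 0.05). Averaged over the other factors, the difference was -1.20 ± 0.44 for estrogen, 1.40 ± 0.44 for progesterone and 1.63 ± 0.44 for haloperidol, none of which describes a single background well. Without BP A these averages were -1.46, 1.66 and 1.37. The interaction of all 3 factors, which is the estrogen by haloperidol interaction with progesterone minus the same without it, was 9.88 ± 1.78. Over the whole array, 0 of 20792 probe sets were called in that interaction by limma, 0% (918 had an unadjusted p under 0.05). The estrogen by haloperidol interaction, averaged over progesterone, was 0.28 ± 0.89.

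Set against sham, the log2 difference of ATP6V0D2 was 4.63 for HEP, 2.28 for HP, 0.17 for HE, 4.64 for H, 0.74 for BEP, 3.60 for BP, 0.51 for BE and 0.33 for B (SE 0.89 each). These 8 differences share the sham animals. Against sham, 0.731% of probe sets were called in HEP, 2.75% in HP, 3.61% in HE, 4.04% in H, 0.164% in BEP, 0.13% in BP, 0.63% in BE and 4.18% in B. For H the ratio was 24.9. All animals of HEP, H and BP lay above all sham animals. BP A, at 3.83, exceeded the highest sham animal by little.

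Several of these differences moved when BP A or HP A was left out. Leaving out BP A gave 4.32 between BP and B, -3.90 between BEP and BP, -2.37 between HP and BP and 4.64 between BP and sham. Without HP A, the difference was 1.46 between HEP and HP, -1.47 between HP and H and -0.44 between HP and BP. The estrogen by haloperidol interaction ranged from -0.17 without HP A to 0.80 without BP A, so its sign was not fixed. The interaction of all 3 factors was 10.92 without BP A and stayed between 8.98 and 10.92 over the 36 fits that each left out 1 array.

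ATP6V1C2 followed another pattern: haloperidol went with a higher level, and most of all where estrogen was given. Its level was 7.65, 8.20, 7.87 and 7.26 in HEP animals A to D, against 6.02, 5.16, 5.79 and 4.77 in BEP. With estrogen alone it was 7.74, 7.62, 7.96 and 8.33 in HE, against 4.62, 6.12, 5.61 and 5.34 in BE. Neither of these pairs overlapped, and the lowest haloperidol animal stood more than 1 log2 unit above the highest bromocriptine animal in each.

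Without estrogen, the drugs were closer. HP had 6.84, 6.85, 6.71 and 7.09, against 8.00, 7.04, 5.29 and 6.77 in BP. H had 7.61, 7.56, 7.10 and 6.26, against 6.23, 6.44, 6.01 and 6.54 in B. The sham animals had 5.88, 6.57, 5.73 and 6.50. HP overlapped BP, H overlapped B through animal H D, and sham covered the range of B. BP A had the highest ATP6V1C2 of its group and the lowest ATP6V0D2.

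The means were 7.91 ± 0.31 in HE, 7.75 ± 0.40 in HEP, 7.13 ± 0.63 in H, 6.87 ± 0.16 in HP, 6.78 ± 1.12 in BP, 6.31 ± 0.23 in B, 6.17 ± 0.43 in sham, 5.43 ± 0.57 in BEP and 5.42 ± 0.63 in BE (SD, n = 4 each). Of the neighbours in this order, BEP and sham alone differed by more than the larger SD, by 0.74 against 0.57. Without BP A the mean of BP was 6.37 ± 0.94 (SD, n = 3). On 9 arrays the value lay below the array's lower quartile and on 4 above its median.

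Haloperidol in place of bromocriptine gave a log2 difference of 2.49 ± 0.38 (SE) between HE and BE, a ratio of 5.62. Between HEP and BEP it was 2.31 ± 0.38, a ratio of 4.97. This SE too is pooled over all groups, whose SDs ran from 0.16 in HP to 1.12 in BP. The corresponding differences without estrogen were 0.83 ± 0.38 between H and B and 0.10 ± 0.38 between HP and BP, or 0.50 without BP A. The average for haloperidol was 1.43 ± 0.19, or 1.53 without BP A. With estrogen the drug groups did not overlap, and without it they did.

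Estrogen stood with a lower level under bromocriptine and a higher level under haloperidol. The log2 difference was 0.87 ± 0.38 between HEP and HP and 0.78 ± 0.38 between HE and H, with no overlap in either pair with this probe set, although HE B and H A, at 7.62 and 7.61, nearly met. Under bromocriptine it was -1.34 ± 0.38 between BEP and BP, -0.94 without BP A, and -0.88 ± 0.38 between BE and B. The average for estrogen, over these opposite signs, was -0.14 ± 0.19, or -0.04 without BP A. The estrogen by haloperidol interaction was 1.94 ± 0.38, or 1.74 without BP A, while 7.48% of all 20792 probe sets were called for that interaction in either direction.

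Progesterone made little difference to ATP6V1C2. It amounted to -0.17 ± 0.38 between HEP and HE, -0.26 ± 0.38 between HP and H, 0.01 ± 0.38 between BEP and BE, and 0.47 ± 0.38 between BP and B, the last of which was 0.06 without BP A. The interaction of all 3 factors was 0.56 ± 0.77, or 0.15 without BP A. Relative to sham, the log2 difference was 1.58 for HEP, 0.70 for HP, 1.74 for HE, 0.97 for H, -0.74 for BEP, 0.61 for BP, -0.75 for BE and 0.14 for B (SE 0.38 each). Without BP A, the difference of BP from sham was 0.20. All HEP, HP and HE animals lay above all sham animals.

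The dimmer probe set of ATP6V1C2 also had a higher mean with haloperidol in each steroid background. Its mean was 7.04 ± 0.81 in HEP and 4.85 ± 0.13 in BEP, 7.39 ± 0.40 in HE and 5.06 ± 0.99 in BE, 5.99 ± 0.45 in HP and 5.74 ± 0.97 in BP, and 6.54 ± 0.45 in H and 6.05 ± 0.22 in B (SD, n = 4 each). The estrogen by haloperidol interaction was 1.89 ± 0.41 and the average for haloperidol 1.32 ± 0.20. Over the 36 arrays both probe sets correlated at a Pearson r of 0.858 and a Spearman rho of 0.883, and at 0.606 and 0.576 after group means were removed. With the dimmer probe set HE overlapped H, at a difference of 0.85 ± 0.41, and HEP overlapped HP, at 1.04 ± 0.41. HE and HEP still lay wholly above BE and BEP. The probe sets disagreed on BP, which exceeded B by 0.47 with the brighter probe set and lay at -0.32 from B with the dimmer.

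**Figure D2:**
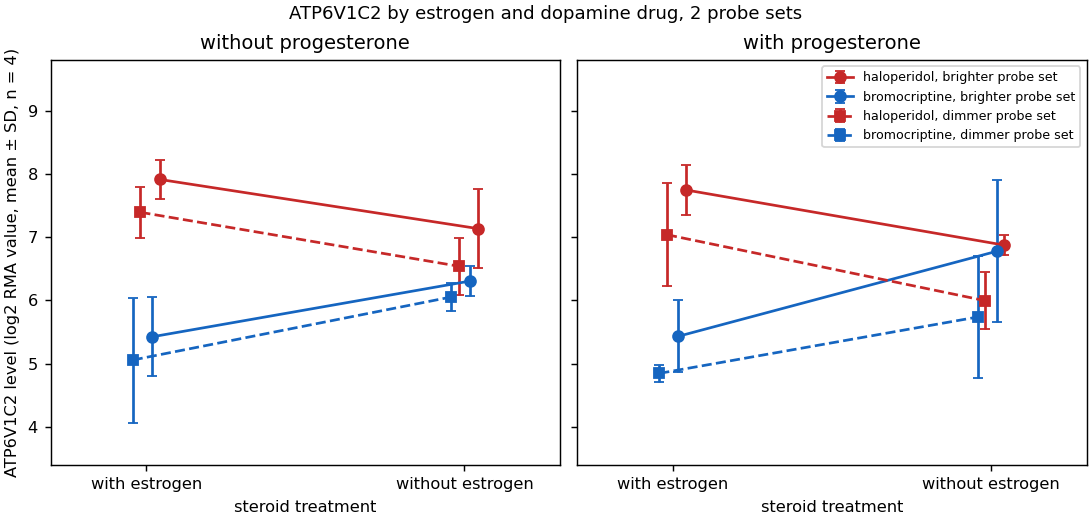
Mean ATP6V1C2 level (log2 RMA value ± SD, n = 4) with and without estrogen, for haloperidol and bromocriptine, in animals without progesterone (left) and with progesterone (right). Solid lines are the brighter probe set and dashed lines the dimmer. In both panels the drugs lie farther apart with estrogen than without it.

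After group means were removed, Pearson's r between ATP6V0D2 and ATP6V1C2 over the 36 animals was -0.27 and Spearman's rho -0.14, given as a description with no test. Without the 2 animals farthest from the median of ATP6V0D2, r was -0.36, and without BP A it was -0.03, so that most of it rested on that animal. The clearest contrast between the genes was HE, where ATP6V1C2 had its highest mean and ATP6V0D2 its lowest among ovariectomized groups.

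Other pump genes were measured on the same arrays. Besides the pair, 13 genes with an ATP6V symbol were measured, along with TCIRG1, which encodes the a3 subunit of the V0 sector used by osteoclasts. Over the 8 ovariectomized groups, 3 of the 13 rose and 2 fell with estrogen on average, against 35.1% of all probe sets called in either direction. ATP6V1A, the catalytic subunit, was higher by 0.39 ± 0.14 on the log2 scale (limma adjusted p = 0.0252, as for the following genes), though its second probe set was not called (0.38, adjusted p = 0.0626). ATP6V1B2, the nucleotide-binding partner of ATP6V1A, was higher by 0.34 ± 0.10 (adjusted p = 0.0124), and ATP6V1E1 of the peripheral stalk by 0.31 ± 0.09 (adjusted p = 0.00495).

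ATP6V0D1, the widespread counterpart of ATP6V0D2, fell by 0.46 on the log2 scale with estrogen (SE 0.14, adjusted p = 0.0115). Its second probe set gave -0.19 and was not called. ATP6V1G2, a dim probe set for a stalk subunit known mainly from neurons, fell by 0.53 (SE 0.18, adjusted p = 0.0187), and its second probe set gave -0.06, not called. TCIRG1 fell by 0.69 (SE 0.17, adjusted p = 0.00189), and its second probe set gave -0.03, not called. Without BP A, 6 of the 13 were called.

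Between HEP and HP, where 16.5% of probe sets were called, ATP6V1A was higher by 0.93 and ATP6V1E1 by 0.63, and TCIRG1 fell by 1.17 (adjusted p = 0.0201, 0.0121 and 0.0169). ATP6V1A lost this call without HP B, HEP B or HEP C (adjusted p up to 0.0864), ATP6V1E1 without HP C (0.0671) and TCIRG1 without HP B or HP C (up to 0.0834). With this probe set TCIRG1 was thus lower in HEP, a group in which every animal had high ATP6V0D2. The other probe set of TCIRG1 was close between the groups, with means of 6.61 in HEP and 6.69 in HP. With haloperidol on average, 0 of the 13 were called by limma, against 6.98% of all probe sets. An unadjusted p under 0.05 was found for 4 of the 13, ATP6V0A4, ATP6V1C1, ATP6V1D and ATP6V1F. With array weights 3 of the 13 were called, and without BP A 2.

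With progesterone on average, 0 of the 13 were called by limma (0 had an unadjusted p under 0.05, and 0 were called under each alternative tried), with 0.0914% of all probe sets called. ATP6V1C1, the widespread counterpart of ATP6V1C2, was not called in the average for estrogen (-0.19 ± 0.10, adjusted p = 0.121) or for haloperidol (0.21 ± 0.10, adjusted p = 0.179). ATP6V0A4, the a4 subunit of kidney and other acid-secreting epithelia in mouse and human, had an SD over the arrays of 1.23, against 0.99 for ATP6V1C2 and 2.20 for ATP6V0D2, with group means between 6.02 in HEP and 8.06 in BP, but its averages of -0.81 ± 0.36 for estrogen (adjusted p = 0.0801) and -0.99 ± 0.36 for haloperidol (adjusted p = 0.0933) did not pass.

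**Figure D3:**
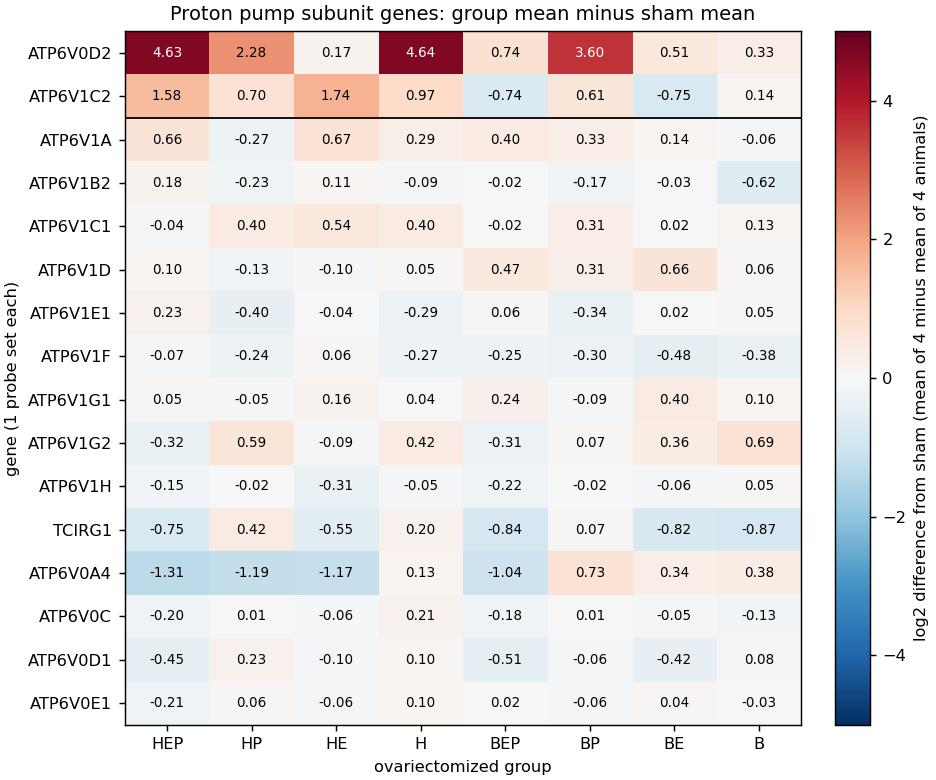
Difference of each ovariectomized group from sham (group mean minus sham mean, 4 animals each, log2) for the pump genes, with ATP6V0D2 and ATP6V1C2 above the line. ATP6V0D2 reaches 4.64 in H and ATP6V1C2 1.74 in HE, while the other ATP6V genes and TCIRG1 lie between -1.31 and 0.73.

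The genes most like ATP6V0D2 over the 36 arrays, among 6192 compared, were ACP5, MMP9, CCR1, CD1.1 and HPSE. ACP5, the tartrate-resistant acid phosphatase, had a Pearson r of 0.904 and a Spearman rho of 0.872. MMP9, the matrix protease gelatinase B, had r 0.773, CCR1, a chemokine receptor, 0.745, CD1.1, a lipid antigen-presenting molecule, 0.692, and HPSE, the heparan sulfate-cleaving enzyme heparanase, 0.690. After removal of group means the values were 0.787, 0.710, 0.628, 0.675 and 0.713. By mean, ACP5, MMP9 and CCR1 were higher in HEP than in HE, as ATP6V0D2 was. HPSE was not, at 9.75 in H, 7.90 in HEP and 8.41 in HE. CD1.1 had 9.21 in H, 8.58 in HEP and 8.26 in HE, so its HEP level stayed below that of H. The lowest r belonged to CCNL2 at -0.628, COMMD1 at -0.601 and REXO2 at -0.588. Among pump genes, TCIRG1 had r 0.462 and ATP6V0C, the proteolipid of the rotor ring, 0.423. These points share arrays and their normalization, and the r is a measure of likeness with no test.

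Because ATP6V0D2 fell into separate ranges, the likeness was also taken within each. Among the 23 animals below the space, r was 0.667 with ACP5 and 0.577 with MMP9. Among the 13 above it, r was 0.098 with ACP5 and 0.341 with MMP9. Splitting by ATP6V0D2 itself narrows its range, which lowers r, so these values are not compared with r over all animals. Without BP A, r over 35 animals was 0.904 with ACP5 and 0.770 with MMP9.

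ACP5 had 11.61, 12.33, 12.18 and 12.03 in HEP, 6.67, 12.14, 11.88 and 8.99 in HP, 8.70, 8.51, 8.76 and 9.46 in HE, and 12.14, 12.38, 10.65 and 11.96 in H. In BP it had 9.30, 10.72, 11.57 and 12.36. The animals low in ATP6V0D2 within mixed groups, HP A, HP D and BP A, were also the lowest of their groups in ACP5, MMP9 and CCR1. The secretory score of those animals, the mean of 20 genes of milk proteins and secretion after each was centred over the arrays, was 1.58 in HP A and 1.3 in HP D, against 0.30 in HP B and 0.82 in HP C. It was 1.59 in BP A, against -0.88, -0.13 and -1.39 in BP B, C and D. In HE, where ATP6V0D2 was low throughout, the score was 1.64 to 2.05, but HEP A and H A combined scores of 1.73 and 1.36 with high ATP6V0D2. The part of epithelial state in the ATP6V0D2 level was not tested.

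**Figure D4:**
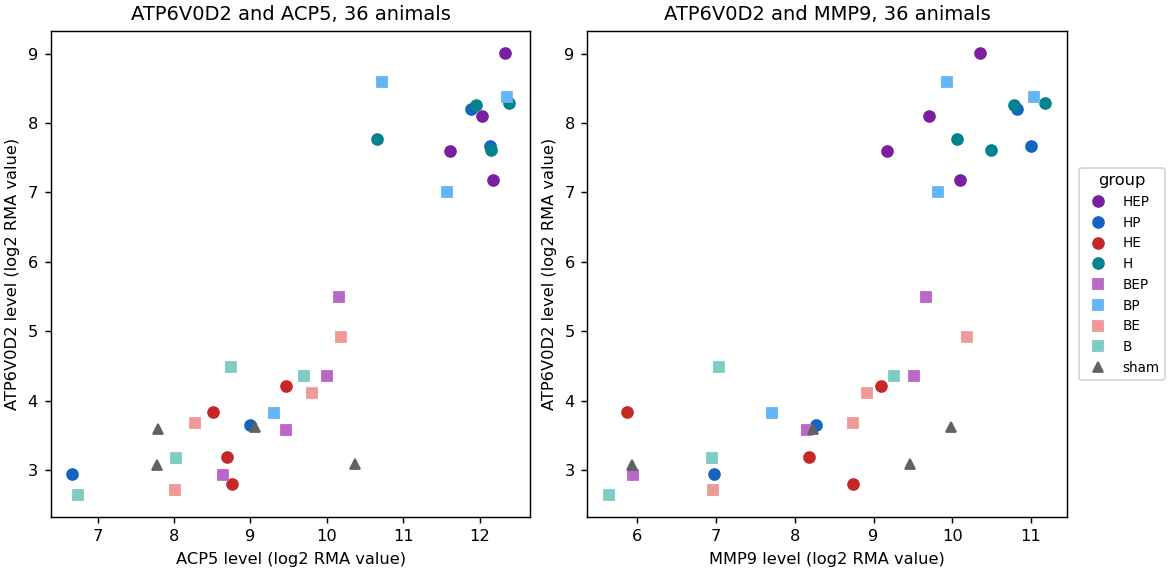
ATP6V0D2 level against ACP5 (left) and MMP9 (right) in 36 animals, all as log2 RMA values, with colour and shape marking the group. High ATP6V0D2 mostly goes with high ACP5 and MMP9, but MMP9 overlaps, at 9.17 in HEP A and 10.19 in BE C. HP A, HP D and BP A are lowest of their groups on both axes, while BP is graded in ACP5.

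ACP5 and MMP9 belong to a list of 13 osteoclast genes, of which 7 were measured. Both were also the genes most like ATP6V0D2 on these same arrays. Their calls between groups that differ in ATP6V0D2, and their part in the counts, follow in part from that likeness. They are no separate support, here or in the paragraphs that follow. Between HE and H, 4 of the 7 fell and none rose, where 10.1% of all probe sets were lower and 9.81% higher. ACP5 fell by 2.93 on the log2 scale (SE 0.83, adjusted p = 0.0126), and CTSK, the collagen-cleaving cathepsin K, by 1.05 (adjusted p = 0.000296). MMP9 fell by 2.66 (adjusted p = 0.0461) and CALCR, the calcitonin receptor, by 1.74 (adjusted p = 0.00914). The call of MMP9 was lost without any single H animal, without HE A, B or C, and without sham B, B B, BE A, BE D, BEP B, HEP B or HEP D (adjusted p 0.0505 to 0.188). The median over the list was -1.05, against -0.01 over all probe sets. CALCR lay below the lower quartile on all 36 arrays, while CTSK, ITGB3 and TCIRG1 lay above the median on all 36. A further 6 genes of the list, including DCSTAMP and OCSTAMP of osteoclast fusion, were not measured under their symbols.

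Between H and sham, 3 of the 7 rose and none fell, against 1.59% of probe sets higher and 2.46% lower. These were ACP5, higher by 3.04 ± 0.83 (adjusted p = 0.0311), CTSK, higher by 0.91, and CALCR, higher by 1.93. ACP5 lost the call without sham A, B or D or H A, B or D (adjusted p 0.0617 to 0.105), and CALCR without H D (0.0645). Between HEP and HE, where ATP6V0D2 differed by 4.46, 0 of the 7 were called by limma and 3 had an unadjusted p under 0.05, with 0.476% of all probe sets called. ACP5 there differed by 3.18 ± 0.83 (adjusted p = 0.0821) and MMP9 by 1.86 ± 0.95 (adjusted p = 0.583).

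Markers of macrophages and dendritic cells moved with part of this pattern. Of 13 measured, 6 fell between HE and H, against 10.1% of all probe sets lower and 9.81% higher, including CD14, a receptor for bacterial lipopolysaccharide, by 1.86 (adjusted p = 0.0051), and MRC1, the macrophage mannose receptor, by 1.04 (adjusted p = 0.00642). The score of the 13 was 0.27 to 0.80 in H and -0.61 to -0.18 in HE. In HEP it was -0.55 to 0.13, which overlaps HE, although the ATP6V0D2 levels of HEP did not overlap those of HE, and 0 of the 13 were called by limma between HEP and HE (1 had an unadjusted p under 0.05, and 0.476% of all probe sets were called). The score of the 7 osteoclast genes was 0.18 to 0.66 in HEP and -0.89 to -0.07 in HE. It was 0.49 to 0.96 in H and -0.95 to 0.08 in sham. This score includes ACP5 and MMP9, the genes most like ATP6V0D2 on these arrays. Its separation of HEP from HE is therefore no separate support. The part of cell numbers in the ATP6V0D2 level was not tested.

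Lists of other cell types and of the cell cycle also separated HE from H. Of 12 adipocyte genes, 7 fell between HE and H and none rose (all probe sets, 10.1% lower and 9.81% higher, here and below), with PCK1, an enzyme of glyceroneogenesis in fat, at -3.10 (log2 difference, adjusted p = 0.000742). Their score was -1.14 to -0.64 in HE and 0.55 to 0.95 in H. Of 12 endothelial genes, 8 fell and none rose (5 without HE B), with CLDN5, a tight junction protein of vessels, at -2.29 (adjusted p = 0.000573), and the score was -0.71 to -0.08 in HE and 0.10 to 0.65 in H. The score of 13 skeletal muscle genes was -1.27 to -0.77 in HE and 0.15 to 4.47 in H. Cell cycle genes ran the other way: 20 of 21 rose between HE and H, with CCNB1, cyclin B1, at 4.28 (adjusted p = 9.6e-05), and the score was 1.1 to 1.53 in HE and -1.38 to -1.14 in H.

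Between HEP and HE, where ATP6V0D2 did not overlap, each of these 4 scores overlapped. In HEP the score was -1.60 to -0.14 for adipocyte genes, -0.85 to 0.03 for endothelium, -1.13 to -0.72 for skeletal muscle and 1.28 to 1.66 for cell cycle. Between HE and BE, where ATP6V1C2 did not overlap, the adipocyte score was -1.14 to -0.64 in HE and -0.35 to 0.51 in BE, and the cell cycle score was 1.1 to 1.53 in HE and 0.34 to 0.70 in BE. Between HEP and BEP the adipocyte score overlapped, at -1.60 to -0.14 in HEP and -0.21 to 0.34 in BEP, and the cell cycle score did not, at 1.28 to 1.66 in HEP and 0.05 to 0.59 in BEP. The part of these cell types and of proliferation in the levels of ATP6V0D2 and ATP6V1C2 was not tested.

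Transcription factors known to drive V-ATPase or osteoclast genes in mouse were followed too, 5 of 9 being measured. Between HE and H, MITF fell by 1.33, TFEB by 1.12 and SPI1, which encodes PU.1, by 1.52 (adjusted p = 0.00399, 0.00808 and 0.00831). MITF rose by 1.36 between H and sham (adjusted p = 0.0131), a call lost without sham A and with only the compared groups in the fit. NFATC1 was not called in either comparison. Of 28 measured lysosomal genes, 9 fell between HE and H and none rose, against 10.1% of all probe sets lower and 9.81% higher; 4 fell without H D and 5 without HE B. Among the 9, the protease CTSD fell by 1.18 (adjusted p = 0.0327) and the lipase LIPA by 0.35 (adjusted p = 0.0366). With estrogen on average, 12 of the 28 fell and none rose, against 17.6% of probe sets lower and 17.5% higher. Between HEP and HE, where ATP6V0D2 did not overlap, the scores of both lists overlapped. For the 28 lysosomal genes the score was -0.41 to 0.05 in HEP and -0.35 to 0.07 in HE. For the 5 transcription factors it was -0.19 to 0.28 in HEP and -0.42 to -0.005 in HE. The part of these genes in the ATP6V0D2 level was not tested.

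ATP6V1C2 was most like SRM, PDXK, PIGR, SLC45A3 and SEPT4 over the 36 arrays, with Pearson r of 0.825, 0.818, 0.803, 0.803 and 0.800. SRM is spermidine synthase, PDXK pyridoxal kinase, and PIGR the receptor that carries IgA across epithelium. After group means were removed, r was 0.564, 0.617, 0.502, 0.507 and 0.339. The lowest r were -0.838 with CCDC80, a secreted matrix protein, -0.785 with ALAS2, the erythroid enzyme of heme synthesis, and -0.752 with LRRN3. Without BP A, r was 0.825 with SRM and -0.841 with CCDC80.

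SRM showed the same division by drug where estrogen was given. Its mean was 10.5 ± 0.46 in HEP and 8.56 ± 0.19 in BEP, and 11.5 ± 0.45 in HE and 8.59 ± 0.17 in BE (SD, n = 4 each). CCDC80 ran the other way, at 11.3 ± 0.09 in HEP and 12.2 ± 0.17 in BEP, and 11.2 ± 0.18 in HE and 12.2 ± 0.12 in BE. These genes were picked for likeness to ATP6V1C2 on these arrays, so their differences carry no test.

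PIGR belongs to the list of milk proteins and secretion, of which 20 of 25 genes were measured. With haloperidol on average, 14 of the 20 rose and none fell, with a median of 2.05 on the log2 scale against -0.01 over all probe sets and 3.85% of probe sets higher. Examples are WAP, whey acidic protein, higher by 4.62 ± 0.75 (adjusted p = 0.000216), and the phosphate transporter SLC34A2, higher by 4.44 ± 0.41 (adjusted p = 5.7e-08). Between HE and BE, 11 of the 20 rose and 1 fell, with 10.5% of probe sets called. Between HEP and BEP, 2 rose (1.08% of probe sets called), and in the estrogen by haloperidol interaction, where ATP6V1C2 stood at 1.94, 0 of the 20 were called by limma (4 had an unadjusted p under 0.05, and 1 was called with array weights), against 7.48% of all probe sets.

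Of general markers of luminal epithelium, 16 were measured, and their median difference with haloperidol on average was -0.06. The score of the 16 was -0.17 to 0.28 in HE and -0.41 to 0.19 in BE, which are overlapping ranges. ATP6V1C2 did not overlap between these groups. The part of epithelial cell numbers in the ATP6V1C2 level was not tested. Of 18 markers of acid-secreting epithelial cells, such as the intercalated cells of the kidney, 3 were measured: the carbonic anhydrase CA12, the ammonia transporter RHBG and HEPACAM2. With haloperidol on average, 0 of the 3 were called by limma (2 had an unadjusted p under 0.05, and 2 were called with array weights), against 6.98% of all probe sets. Between HE and BE, CA12 gave -0.65 ± 0.21 (adjusted p = 0.0398), a call lost without any single HE or BE animal except HE A. FOXI1, the defining transcription factor of such cells, was not measured under its symbol.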

How the data were processed

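Total RNA of pig mammary gland was hybridized to porcine Affymetrix arrays, 1 per animal. The deposited log2 values are probe set summaries made with RMA, per the submitters' processing notes; the sources used here name neither its version nor the program. The base of the logarithm is not stated in the labels and was read as 2 from the range of the values, so every fold rests on that reading. Raw intensities and detection were not analysed here, and the number of arrays limits the precision.

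Of 20792 probe sets, 9149 carried 1 gene symbol and 178 several, and 11465 are unnamed here. Among the 9149, the gene identifier of 9054 was found in the pig reference, under an unaltered symbol. A gene was represented by its brightest probe set annotated to it alone. A model with 1 mean per group was fitted to all 36 arrays with limma 3.58.1 in R 4.3.3 (27 residual and 4.16 prior degrees of freedom). The 27 comparisons were 8 groups against sham, 3 average effects and 4 interactions of the factors, and 12 single steps. Two-sided p-values received the Benjamini-Hochberg adjustment across every probe set of a comparison. An interaction is the difference between effects, averaged over the remaining factor. The fit was tested on simulated data.

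The members, the gene lists and the comparisons were chosen with earlier results of these data known. Named are the pair, the other ATP6V genes and TCIRG1, up to 4 called genes with the largest change from a list and, for each member, the 5 genes most and 3 least correlated with it over the arrays. Examples outside that rule were chosen after their values were seen. Titles carry letters A to D in every group; the deviations of same-letter animals from their group means correlated above 0.1 in 19 of 36 pairs for A, 14 for B, 9 for C and 10 for D, against 101 of 432 pairs with different letters. As this did not hold for every pair and nothing in the labels links the animals, they were not treated as paired. The permutation p of the correlation within groups is not given, since both genes were chosen with their values known. The alternatives were a filter on dim probe sets, a second quantile normalization, array medians subtracted, robust moderation with a variance trend, array weights (statmod 1.5.0), the letter as a block, 1 probe set per gene, fewer groups in the fit, the other probe set, and each array left out. Setting BP A aside for levels and likeness, and likeness on each side of the widest space, were added after seeing the data.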

Additional observations from a re-analysis of the deposited data

Results flagged for a closer look

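The estrogen difference of ATP6V0D2 had opposite directions in backgrounds that differ in 1 further treatment, with all 4 animals given estrogen on 1 side of the mean of the group without it. With progesterone, it was higher by 5.22 on the log2 scale under haloperidol (HEP minus HP) than under bromocriptine (BEP minus BP). Under haloperidol, it was higher by 6.83 with progesterone (HEP minus HP) than without (HE minus H). The means of HP and BP lie between high and low animals of these groups, so lying on 1 side of them says little. HEP overlapped HP, and BEP overlapped BP. For ATP6V1C2 the estrogen difference was higher under haloperidol than under bromocriptine by 1.66 without progesterone (HE minus H against BE minus B) and by 2.22 with it (HEP minus HP against BEP minus BP). The difference was not tested in any of these 4 cases.

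Among 90 groups of 4 animals examined for the genes named with ATP6V0D2 and ATP6V1C2, 4 had a single animal far from the others, and chance alone gives about 1 in 20. CTSK was 11.5 in B A, against 12.2 in each of the other B animals, and 11.3 in BP A, the library that stood apart, against 12.05 to 12.17 in the other BP animals. CALCR was 2.81 in BE C, against 1.86 to 1.99 in the other BE animals, all below the lower quartile of their arrays. HPSE was 8.73 in BEP D, against 7.66 to 7.77 in the other BEP animals. BEP D was also the animal with the highest ATP6V0D2 of its group, but HPSE was picked for its likeness to ATP6V0D2 on these arrays.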

How the results depend on the processing

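Over the 36 fits that each left out 1 array, all 1944 differences of the pair stayed within 1 residual SD of the values above. That SD was 1.34 for ATP6V0D2 and 0.57 for ATP6V1C2. Under the other settings 430 of 432 did so. The exceptions were from the dimmer probe set of ATP6V1C2, with -0.10 between BP and sham and -0.32 between BP and B. The bound is loose, since leaving out an array of neither compared group cannot change their difference. For ATP6V0D2, BP minus sham moved from 3.60 to 4.64 without BP A and still lay within it. Every group has 1 animal of each letter, so fitting the letter as a replicate block cannot change a difference between groups. That of H from sham for ATP6V0D2, for example, stayed at 4.64 by design. The block changed no count of the 13 other ATP6V genes (5 for estrogen). For haloperidol on average, that count was 0 and became 3 with array weights and 0 to 2 with an array left out (2 without BP A, 1 without BEP D); between B and sham it was 0, and 0 to 1 (1 without HP A). With 1 array left out, the lysosomal genes called between HE and H numbered 4 to 10 (4 without H D) and the osteoclast genes called between H and sham 1 to 3 (1 without H D). For a chosen set of single genes and comparisons, 765 results held and 27 calls were lost with an array left out. Under the other settings 171 results held and 1 call was lost, MMP9 between HE and H (limma adjusted p = 0.0519 with a variance trend). Other tested genes were outside that set. Among these were MITF between H and sham and CA12 between HE and BE, whose lost calls are given above. ATP6V0D2 was itself removed by the filter on dim probe sets, and the cause of the other changes was not tested. Low signal limits ATP6V0D2 in its low animals, where a fold has no firm size.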

Other observations

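In the order of genes on the pig reference assembly Sscrofa11.1, used here for order only, ATP6V0D2 and ATP6V1C2 are not neighbours, and some of the measured neighbours of each had the following levels; LOC100154873, KCNF1 and HPCAL1 were measured too, with r -0.31, 0.37 and 0.11. Near ATP6V0D2, WWP1, a ubiquitin ligase, had group means between 6.76 in B and 5.66 in sham and a Pearson r of -0.09 with ATP6V0D2 over the 36 arrays. CA3, a carbonic anhydrase, had means of 9.90 in HEP to 11.5 in HP and r -0.28. Next to ATP6V1C2, PDIA6, a disulfide isomerase, had means between 11.8 in HE and 11.2 in B and r 0.15, and NOL10 7.56 in HEP and 6.96 in B as its extremes with r 0.46. ODC1, the rate-limiting enzyme of polyamine synthesis, lies beyond NOL10 and had means of 11.4 in HEP and 9.57 in B as its extremes, with r 0.37.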
